A study of Mus musculus with 12 samples.

Results

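Axon guidance ligands and receptors are the cell surface and secreted proteins that steer growing axons, and they were followed here in mouse cortical neuronal cultures under lasting interferon-gamma exposure. Members were chosen by symbol (semaphorins of classes 3 to 7, plexins, neuropilins, ephrins, Eph receptors, Slits, Robo receptors, netrins, Dcc and the Unc5 receptors) with at least 10 counts in at least 6 libraries. Of 71 rows of the table that matched a symbol, 62 met the minimum, out of 43629 rows in all. They were 31 ligand genes and 31 receptor genes. The study compared 6 libraries labelled IFNG with 6 labelled Control, all made from poly(A) RNA of cultures of mouse cortex. By the series' design text, the IFNG cultures overexpressed Ifng, the gene of interferon-gamma, from a lentivirus. The protocol dates transduction to day 7 in vitro and harvest to 10 days after it. That protocol is attached to all 12 samples, so the vector used for Control cultures is not given in the sources used here, and neither are the strain, the age of the animals or what separates the samples of a group (culture, animal or only library). The p-values therefore measure sample-to-sample spread, which may be technical only.

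In a developing brain, semaphorins act through plexins, with neuropilins as co-receptors for the secreted class 3 members, and mostly repel axons. Slits repel through Robo receptors, and netrins attract through Dcc or repel through Unc5 receptors. Ephrins are bound to the membrane and signal on contact with Eph receptors in both directions, ephrin-A mainly with EphA and ephrin-B mainly with EphB. In mature cortex many of these genes stay on in neurons and glia, where they act on dendrites, synapses and blood vessels.

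Libraries held between 13875435 and 34239380 counts. Ifng read from 4.98 to 17.9 CPM (counts of a gene for every 1000000 counts, on library totals scaled by the TMM method) in IFNG libraries and from 0 to 0.170 CPM in Control libraries, so each label matched its Ifng level (exact two-sided permutation test over 924 arrangements, p = 0.00216, the smallest possible). By the edgeR test described below, 14.3% of all genes tested rose and 9.79% fell. All 12 neuronal markers were tested. Of these 5 fell (41.7%), none rose and 7 did not pass, among them Nefm at a log2 fold change of 0.20. All 13 tested of 15 astrocyte markers rose, and their log2 fold changes had a median of 1.02. Their summed level was 2996 to 3420 CPM in Control and 5109 to 8501 CPM in IFNG libraries, while S100b and Gjb6 stayed under 1.37 CPM in every library. Of 10 tested GABAergic markers 4 fell (40%), 1 rose (10%) and 5 did not pass. Calb2, Dlx2, Dlx1 and Gad1 fell by 1.30, 1.18, 0.99 and 0.68 in log2 fold change, and Sst rose by 0.77. Of 8 glutamatergic markers 3 fell (37.5%), among them Nrgn by 1.08 and Neurod6 by 0.42. The other 5 did not pass, among them Slc17a7 at 0.051. Of 9 markers of the oligodendrocyte lineage Pdgfra and Olig2 fell by 0.65 and 0.35, Cnp rose by 2.13, and 6 did not pass. Microglial markers summed to at most 5.46 CPM and endothelial markers to at most 3.45 CPM in any library, and Cldn5 was at 0 counts in all. Of 2 tested microglial markers P2ry12 rose by 3.60 (50%), at no more than 1.76 CPM in any library, and 1 did not pass. The 1 tested endothelial marker did not pass. Fibroblast and mural markers summed to 30.4 to 49.4 CPM in Control and 47.8 to 56.8 CPM in IFNG libraries. Of 5 tested, Pdgfrb rose by 1.09 (20%) and 4 did not pass, among them Dcn at -0.011. More or fewer cells of a type and more or less RNA per cell cannot be told apart in such bulk samples, and the part of these marker changes in the results on guidance genes was not tested.

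The guidance genes moved in both directions. All 62 members passed the low-count filter of the test. By the quasi-likelihood test of edgeR, Benjamini-Hochberg adjusted over 15241 genes with a threshold of 0.05, 14 members rose and 14 fell, and 34 did not pass. The members called made up 45.2%, against 24.1% of all genes tested. By direction, 22.6% of members rose, against 14.3% of all genes, and 22.6% fell, against 9.79% of all genes. Calls were more frequent among well-read genes: of genes whose mean log2 CPM was 3 or more, 27.8% were called, and of the 57 members at such a level, 25 were. Log2 fold changes had a median of -0.074 over the members and -0.016 over all genes tested. Of those called, 4 members rose and 2 fell by at least 2-fold, against 6.69% and 0.781% of all genes (7.47% in both directions). The groups did not overlap in 7 members that were higher and 7 that were lower, against 8.75% and 4.09% of all genes. Of the 28 calls, 16 were kept in all 22 alternatives, which were another tool, filter, scaling or block or the loss of libraries. The share of all genes called lower moved little with some of these. It was 9.81% with DESeq2 size factors, where 13 members rose and 14 fell. With the filter of 10 counts in 6 libraries it was 9.29%, and 14 members rose and 14 fell. With a replicate block it was 10.3%. It moved more with others. With DESeq2 15.4% of all genes were higher and 11.4% lower, and 30 members were called. With no composition factor 12.9% were higher and 12.2% lower, and 28 members were called. With no filter 8.3% of all genes were higher and 4.25% lower, and 13 members rose and 13 fell.

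**Figure D1:**
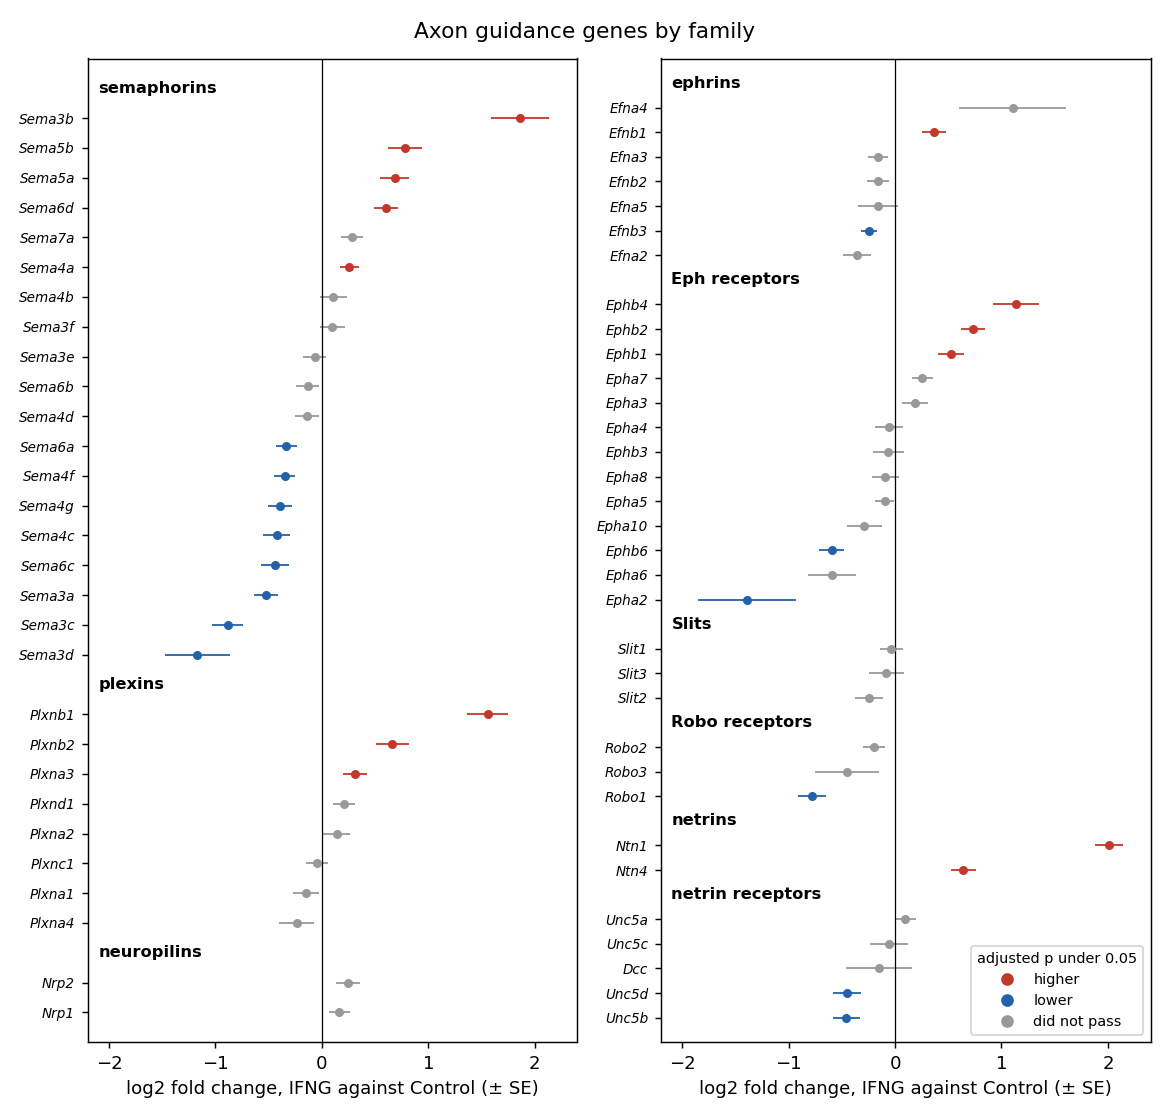
Log2 fold change (IFNG against Control, x axis) of each of the 62 members, with bars for the standard error, grouped by family and sorted within it. Red and blue mark genes past an adjusted p of 0.05 in edgeR. Ntn1, Sema3b, Plxnb1 and Ephb4 lie farthest to the right among called genes, and Epha2 and Sema3d farthest to the left.

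When totals were taken over genes other than those that rose (a choice made after seeing the data), the median over all genes tested shifted up by 0.11 in log2 fold change. On that scaling 19 members rose and 6 fell, against 19.4% and 4.93% of all genes. Of the falls, 8 were no longer called, and all 8 stayed below 0. Unc5b, Unc5d, Sema6c and Sema4c stood at -0.35, -0.34, -0.33 and -0.32 (adjusted p = 0.0527, 0.0606, 0.0797 and 0.0673 in edgeR). Sema4g, Sema4f, Sema6a and Efnb3 stood at -0.28, -0.24, -0.22 and -0.13 (adjusted p = 0.0826, 0.0837, 0.108 and 0.248). Epha7, Nrp1, Nrp2, Plxnd1 and Sema7a then rose.

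Netrins showed the largest rise. Ntn1 (ENSMUSG00000020902, GRCm38 chromosome 11, 68209364 to 68400823, minus strand) encodes the secreted cue netrin-1. Its level was lowest 20.96, median 27.7 and highest 32.7 CPM in Control and lowest 76.8, median 111 and highest 137 CPM in IFNG libraries. The lowest IFNG library thus stood above the highest Control library by more than the whole Control range. The log2 fold change was 2.01 ± 0.14 (SE; adjusted p = 4.53e-10 in edgeR), or 4.03-fold, and stayed between 1.94 and 2.09 with any 1 library left out. Per kilobase of exon, Ntn1 went from 4.34 to 17.5 CPM, from place 43 to place 14 among the 62 members.

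Ntn4 encodes a netrin that binds laminin in basement membranes. It ran from 21.1 to 24.6 CPM (median 22.3) in Control and from 26.1 to 45.7 CPM (median 35.0) in IFNG libraries, with no overlap. Its rise in log2 CPM was 0.64 ± 0.12 (adjusted p = 0.00042 in edgeR). Ntn5, which was under the minimum, had 8 counts in Control and 16 in IFNG libraries in all.

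The receptors of netrins did not rise with their ligand. None of the 5 rose and 2 fell (40.0%), beside 14.3% and 9.79% of all genes tested. Dcc, through which netrin-1 attracts axons, ran from 8.36 to 24.0 CPM (median 13.4) in Control and from 2.71 to 17.5 CPM (median 15.0) in IFNG libraries. Its lowest value, 2.71 CPM in IFNG 5, lay far from the other IFNG libraries, at 14.0 to 17.5 CPM. The log2 fold change of Dcc was -0.15 ± 0.31 (adjusted p = 0.775), and 0.077 without IFNG 5. Unc5d fell by 0.45 ± 0.13 (adjusted p = 0.017), from 106 to 126 CPM in Control to 46.1 to 96.8 CPM in IFNG libraries, again with the lowest value in IFNG 5. Without IFNG 5 its log2 fold change stood at -0.32 and was still called. Unc5b fell by 0.46 ± 0.13 (adjusted p = 0.0116), and 5 of 6 IFNG libraries lay below all Control libraries. Unc5a, the most abundant of these receptors per kilobase at 23.9 CPM per kilobase in Control, did not pass and stood at 0.095 ± 0.097 (adjusted p = 0.526).

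**Figure D2:**
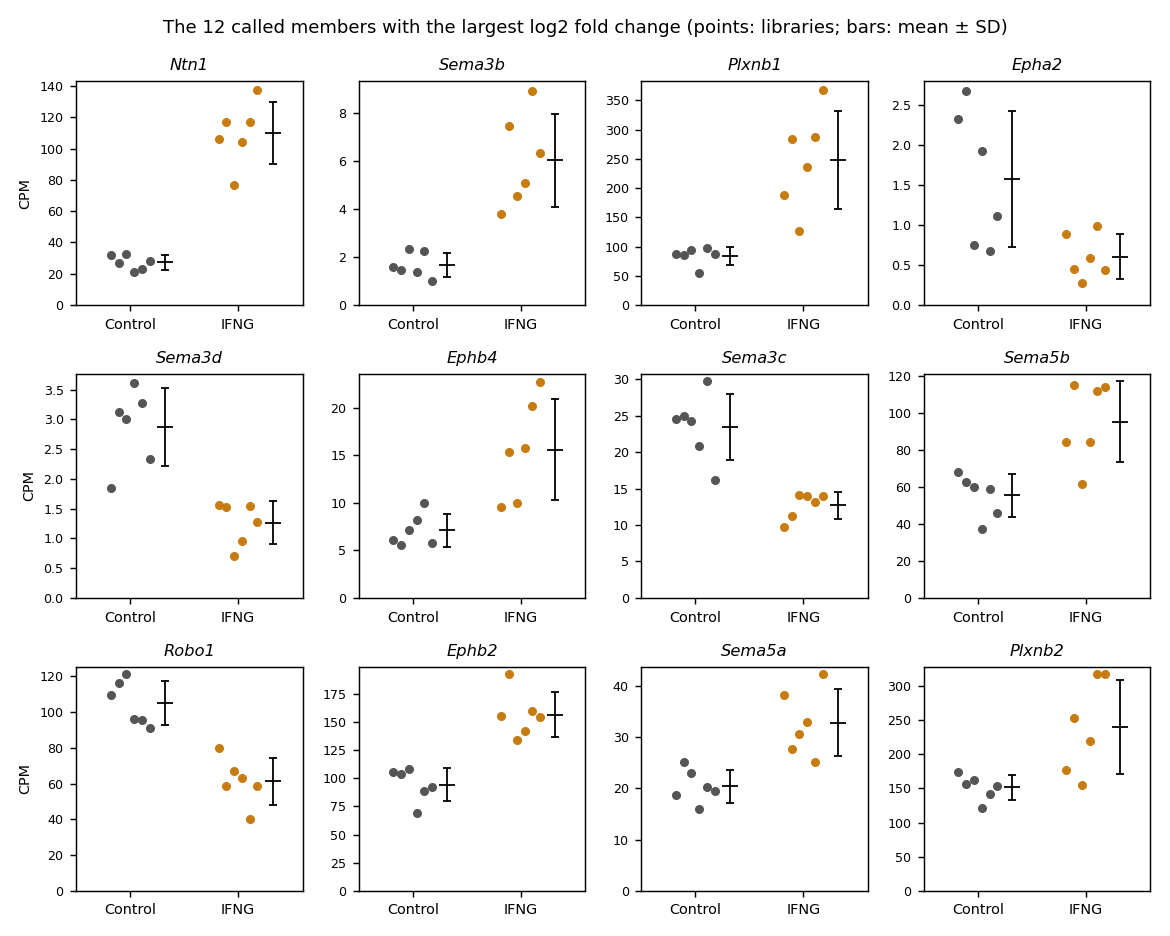
CPM in each library (y axis, from 0) for the 12 called members with the largest log2 fold change, Control in grey and IFNG in orange, with mean and SD (n = 6 each) at the right of each group. All 6 IFNG libraries of Ntn1 lie between 76.8 and 137 CPM, above the Control maximum of 32.7 CPM. For Epha2, with fewer than 3 CPM in every library, the groups overlap.

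Plexins are the receptors of semaphorins. Of the 8 measured, 3 rose (37.5%) and none fell, beside 14.3% and 9.79% of all genes tested. Plxnb1 (ENSMUSG00000053646, chromosome 9, 109095389 to 109119917, plus strand) encodes plexin-B1, a receptor of the class 4 semaphorin Sema4D. It ran from 54.9 to 97.8 CPM (median 87.2) in Control and from 126 to 367 CPM (median 260) in IFNG libraries. The groups did not overlap. The log2 fold change was 1.56 ± 0.19 (adjusted p = 3.85e-06), or 2.94-fold. In Control Plxnb1 was the least abundant per kilobase of the 8 plexins that met the minimum, at 8.80 CPM per kilobase. In IFNG libraries it reached 25.9 CPM per kilobase. Control 4 stood apart at 54.9 CPM, against 85.0 to 97.8 CPM in the other Control libraries, and without it the log2 fold change was 1.47. Its exons share 257 bases with a gene on the opposite strand, whose reads cannot be told apart without strand.

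Plxnb2, a plexin that also binds class 4 semaphorins, ran from 121 to 174 CPM (median 155) in Control and from 154 to 318 CPM (median 236) in IFNG libraries. It rose by 0.66 ± 0.15 (adjusted p = 0.00316), with 5 of 6 IFNG libraries above all Control libraries. Plxna3, a partner of neuropilins, was called at 0.31 ± 0.11 (adjusted p = 0.0489), at the edge of the threshold. Its call was lost without any of Control 2 to Control 6 or IFNG 1, 2, 4 or 6, with adjusted p up to 0.118. Sema4d, the gene of the plexin-B1 ligand, ran from 38.1 to 61.5 CPM in Control and from 41.6 to 53.1 CPM in IFNG libraries, with a log2 fold change of -0.14 ± 0.11 (adjusted p = 0.399). Plxna1, the most abundant plexin per kilobase in Control, stood at -0.15 ± 0.12 (adjusted p = 0.422). The neuropilin genes stood at 0.16 ± 0.095 for Nrp1 and 0.25 ± 0.11 for Nrp2 (adjusted p = 0.234 and 0.131). Nrp2 passed without IFNG 5, at 0.34 (adjusted p = 0.00738).

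Semaphorins changed in both directions. Of 19 measured, 5 rose (26.3%) and 8 fell (42.1%), beside 14.3% and 9.79% of all genes tested. Together these made up 68.4%, beside 24.1% of all genes. The class 3 semaphorins, which are secreted and bind neuropilins, held both the largest rise and the largest fall of the family. Sema3b went from 1.02 to 2.32 CPM (median 1.53) in Control to 3.80 to 8.94 CPM (median 5.70) in IFNG libraries. The groups did not overlap, and it rose by 1.86 ± 0.27 (adjusted p = 2.94e-05), or 3.64-fold, from a low level. Sema3c went from 16.2 to 29.7 CPM (median 24.4) in Control to 9.71 to 14.1 CPM (median 13.6) in IFNG libraries. It fell by 0.88 ± 0.15 (adjusted p = 0.000119), with no overlap. Sema3a, the classic repellent acting through Nrp1, fell by 0.52 ± 0.11 (adjusted p = 0.00159). It ran from 53.8 to 85.3 CPM in Control and from 39.1 to 46.2 CPM in IFNG libraries, with no overlap. The top value was that of Control 4, and without that library Sema3a fell by 0.39 and was still called. Sema3d ran from 1.85 to 3.62 CPM (median 3.06) in Control and from 0.704 to 1.56 CPM (median 1.40) in IFNG libraries, and fell by 1.17 ± 0.31 (adjusted p = 0.00787), with no overlap. Sema3e, which signals through Plxnd1 without a neuropilin, and Sema3f stood at -0.066 ± 0.11 and 0.097 ± 0.12, neither past the threshold (adjusted p = 0.712 and 0.608).

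The class 5 semaphorins, membrane proteins with thrombospondin repeats, both rose. Sema5a ran from 16.0 to 25.1 CPM (median 19.9) in Control and from 25.1 to 42.4 CPM (median 31.8) in IFNG libraries, a rise of 0.68 ± 0.14 (adjusted p = 0.00108) with no overlap. Sema5b ran from 37.3 to 68.3 CPM (median 59.6) in Control and from 61.9 to 116 CPM (median 98.3) in IFNG libraries, a rise of 0.78 ± 0.16 (adjusted p = 0.00092) with 1 IFNG library inside the Control range. Among the membrane-bound class 6 members, Sema6d rose by 0.60 ± 0.11 (adjusted p = 0.00042), from 90.7 to 113 CPM in Control to 121 to 200 CPM in IFNG libraries without overlap. Sema6a and Sema6c fell by 0.33 ± 0.097 and 0.44 ± 0.13 (adjusted p = 0.0161 and 0.0176). Sema6b, the most abundant semaphorin per kilobase at 43.3 CPM per kilobase in Control, did not pass, at -0.13 ± 0.11 (adjusted p = 0.413). The class 4 members Sema4c, Sema4f and Sema4g fell by 0.43, 0.35 and 0.39, with adjusted p of 0.0151, 0.0112 and 0.0129. Sema4a rose by 0.26 ± 0.088 (adjusted p = 0.0384). Sema7a, whose protein is anchored to the membrane by a lipid and binds Plxnc1, stood at 0.28 ± 0.11 (adjusted p = 0.0607), and Plxnc1 at -0.046 ± 0.099 (adjusted p = 0.786).

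Some of these calls depended on single libraries. Sema4a was no longer called without any of Control 1, 2, 3 or 5 or IFNG 1, 2, 3 or 6 (adjusted p up to 0.0911). Sema4c was lost without Control 6 (-0.34, adjusted p = 0.0513), and Sema6a without IFNG 6 (-0.28, adjusted p = 0.0553). Sema4c shares 334 exon bases with a gene on the opposite strand.

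Of 13 Eph receptor genes 3 rose (23.1%) and 2 fell (15.4%), beside 14.3% and 9.79% of all genes tested. By class, of 5 EphB receptor genes 3 rose and 1 fell, and of 8 EphA receptor genes none rose and 1 fell. The difference between the classes was not tested. Ephb2, an EphB receptor with known roles at excitatory synapses, ran from 69.3 to 108 CPM (median 97.7) in Control and from 134 to 193 CPM (median 155) in IFNG libraries. It rose by 0.73 ± 0.11 (adjusted p = 5.17e-05), with no overlap. Ephb4, best known from veins, ran from 5.52 to 9.95 CPM (median 6.59) in Control and from 9.58 to 22.7 CPM (median 15.6) in IFNG libraries. It rose by 1.14 ± 0.22 (adjusted p = 0.00050), or 2.20-fold, with 5 of 6 IFNG libraries above all Control libraries. Ephb1 rose by 0.53 ± 0.12 (adjusted p = 0.00315). Ephb6, whose kinase domain is inactive, ran from 71.4 to 98.4 CPM (median 81.7) in Control and from 45.0 to 66.9 CPM (median 51.8) in IFNG libraries. It fell by 0.60 ± 0.12 (adjusted p = 0.00067), with no overlap. It was the most abundant Eph receptor per kilobase in Control, at 21.9 CPM per kilobase, and in IFNG libraries, at 14.5 CPM per kilobase, it stood below Epha5, at 17.2 CPM per kilobase.

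Of the EphA receptors, Epha2 fell by 1.39 ± 0.46 (adjusted p = 0.0313) at a very low level. It ran from 0.678 to 2.68 CPM (median 1.52) in Control and from 0.271 to 0.988 CPM (median 0.518) in IFNG libraries, with overlap, and reached 10 counts in 9 of 12 libraries. Its call was lost without any of Control 1, 2 or 4 or IFNG 2, 3, 4 or 6 (adjusted p up to 0.0949). Just outside the minimum, Epha1 reached 10 counts in 5 libraries. Epha7 and Epha6 lay near the threshold, at 0.26 ± 0.096 and -0.60 ± 0.23 (adjusted p = 0.0575 and 0.0623 in edgeR). Each passed in some of the alternatives, Epha7 as higher and Epha6 as lower. The abundant neuronal receptor gene Epha5 did not pass, at -0.098 ± 0.085 (adjusted p = 0.444), nor did Epha4 at -0.055 ± 0.13 (adjusted p = 0.813).

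Among the ephrins 1 of 7 rose and 1 fell (14.3% each), beside 14.3% and 9.79% of all genes tested. Efnb1, a transmembrane ligand of EphB receptors, rose by 0.37 ± 0.11 (adjusted p = 0.0237), from 33.1 to 41.8 CPM in Control to 37.7 to 58.9 CPM in IFNG libraries, with overlap. It was no longer called without Control 2 (0.35, adjusted p = 0.0551), without IFNG 6 (0.31, adjusted p = 0.0649) or without Control 4 and IFNG 5 together (0.30, adjusted p = 0.0601). Efnb3, the most abundant member of all per kilobase at 91.6 CPM per kilobase in Control, fell by 0.24 ± 0.077 (adjusted p = 0.0255). It ran from 274 to 314 CPM in Control and from 227 to 260 CPM in IFNG libraries, with no overlap. Its call was lost without any of Control 1, 3 or 6 or IFNG 2, 4 or 6 (adjusted p up to 0.0806). Efnb2 stood at -0.16 ± 0.10 (adjusted p = 0.271). Efna4 stood at 1.11 ± 0.50 (adjusted p = 0.123), with 0.565 to 2.32 CPM in Control and 0.543 to 4.86 CPM in IFNG libraries. Control 4 held the top Control value, and without it Efna4 passed, at 1.51 (adjusted p = 0.0399). Efna2 lay just outside the threshold, at -0.36 ± 0.13 (adjusted p = 0.0501).

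Slits did not pass, while their receptor gene Robo1 fell. Slit1, Slit2 and Slit3 had log2 fold changes of -0.035 ± 0.11, -0.25 ± 0.13 and -0.082 ± 0.16 (adjusted p = 0.855, 0.196 and 0.767). Slit1 was the most abundant of them, at 31.7 CPM per kilobase in Control and 31.0 CPM per kilobase in IFNG libraries. Robo1 (ENSMUSG00000022883, chromosome 16, 72308306 to 73046095, plus strand), a Slit receptor, ran from 90.9 to 121 CPM (median 103) in Control and from 40.3 to 79.9 CPM (median 61.0) in IFNG libraries. It fell by 0.78 ± 0.13 (adjusted p = 0.000118), and each IFNG library lay below each Control library. Its lowest value was that of IFNG 5, and without any 1 library its log2 fold change lay between -0.87 and -0.67. Robo2 stood at -0.20 ± 0.10 and Robo3 at -0.45 ± 0.31 (adjusted p = 0.182 and 0.313).

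**Figure D3:**
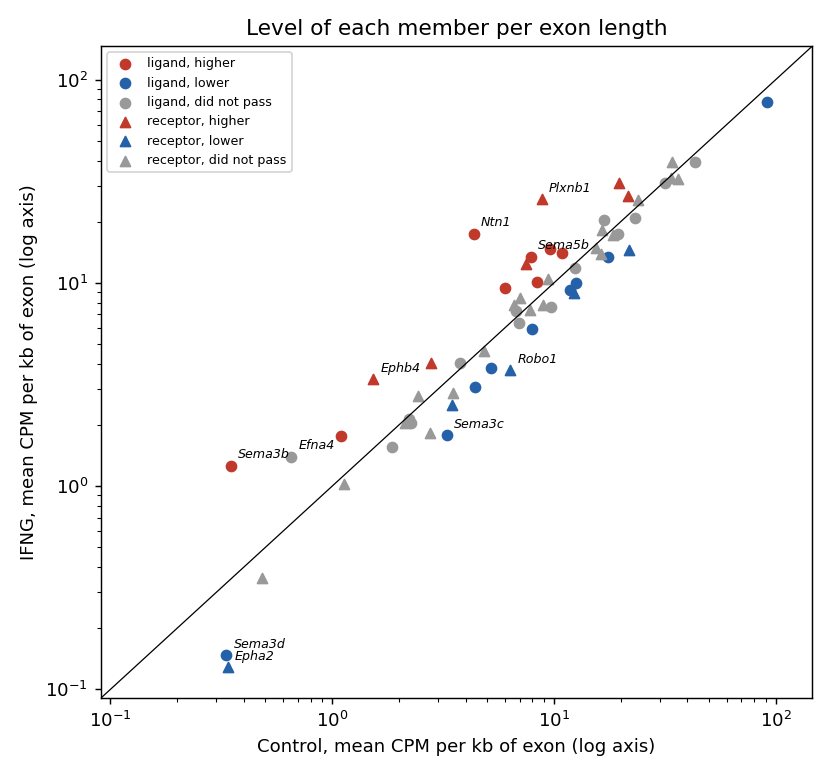
Mean CPM per kilobase of exon in Control (x axis) and IFNG libraries (y axis), both on log axes, with a point for each of the 62 members; circles are ligands, triangles receptors, and the line marks equal levels. Most points lie near the line, with Ntn1 and Plxnb1 above it and Robo1 and Sema3c below.

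Members varied between libraries within each group. The coefficient of variation of a member had a median of 13.3% in Control and 16.9% in IFNG libraries, and was highest for Efna4 in both groups (61.4% and 75.8%). Control 4 was the lowest Control library in 30 of the 62 members. IFNG 3 was the lowest IFNG library in 24 members, among them 10 of the 14 that rose (Ntn1, Ntn4, Plxnb1, Plxnb2, Plxna3, Sema5b, Sema6d, Ephb1, Ephb2 and Efnb1), and it held the least Ifng, at 4.98 CPM. IFNG 5 was the lowest in 23 members and held the most Ifng, at 17.9 CPM. How often each library was lowest over all genes tested was not counted, so these counts cannot be read as particular to the members. Whether the Ifng level has a part in this spread was not tested. With Control 4 and IFNG 5 both left out, 15 members rose and 15 fell.

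**Figure D4:**
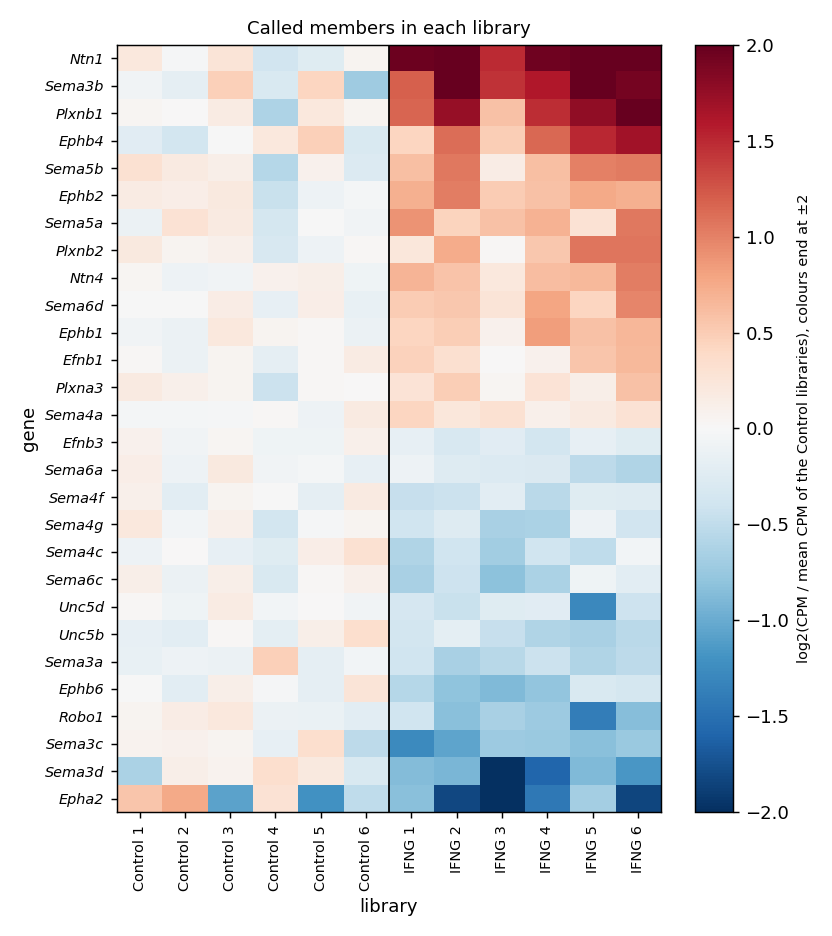
Log2 ratio of CPM to the mean of the Control libraries for the 28 called members (rows, sorted by fold change) in each of the 12 libraries (columns); colours end at 2 on either side. Rises are paler in IFNG 3 than in most IFNG libraries, and the Robo1 and Unc5d falls are deepest in IFNG 5.

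Other genes of the pathway came from lists of further cues and co-receptors and of signalling proteins inside the cell. Of 31 further cues and co-receptors, 7 rose (22.6%) and 3 fell (9.68%), beside 14.3% and 9.79% of all genes, and the median of their log2 fold changes was -0.033. Islr2, a membrane protein of axon extension, averaged 94.5 ± 13.3 CPM over Control libraries and 273 ± 41.0 CPM over IFNG libraries (SD, n = 6 each), and rose by 1.53 ± 0.11 (adjusted p = 2.06e-09). Vangl2, of planar cell polarity, and Rgma, a repellent that acts through neogenin, rose by 0.80 ± 0.12 and 0.79 ± 0.13. Met, the receptor of hepatocyte growth factor, fell by 0.66 ± 0.10 (adjusted p = 4.89e-05), Flrt3, a ligand of Unc5 receptors, by 0.32 ± 0.088 and Dscam by 0.35 ± 0.10. The abundant adhesion gene Ncam1 did not pass, at -0.16 ± 0.084 (adjusted p = 0.199).

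Of 53 tested signalling genes 13 fell (24.5%) and 5 rose (9.43%), beside 9.79% and 14.3% of all genes, and the median of their log2 fold changes was -0.16, beside -0.016 for all genes. Those that fell included 4 of the 5 collapsin response mediators listed, which relay Sema3A signals to microtubules. Dpysl3 fell by 0.48 ± 0.092 (adjusted p = 0.00067), Dpysl5 by 0.36 ± 0.083, Crmp1 by 0.36 ± 0.084 and Dpysl2 by 0.35 ± 0.10, while Dpysl4 did not pass, at 0.050 ± 0.12. The kinase gene Fyn averaged 242 ± 15.6 CPM over Control libraries and 189 ± 6.82 CPM over IFNG libraries (SD, n = 6 each), and fell by 0.36 ± 0.076 (adjusted p = 0.00157). Farp2, Abl1 and Rhoa rose by 0.82 ± 0.21, 0.35 ± 0.098 and 0.28 ± 0.087. The small GTPase gene Cdc42 did not pass, at -0.22 ± 0.10 (adjusted p = 0.129). These falls stand beside those of the neuronal markers Dcx, Stmn2, Gap43, Rbfox3 and Snap25, by 0.83, 0.41, 0.33, 0.37 and 0.34. The other 7 of the 12 neuronal markers did not pass, and of these Nefm stood above 0, at 0.20 ± 0.11. The relation between the falls of signalling genes and of markers was not tested.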

How the data were processed

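The deposited values are whole-number counts by gene in 12 libraries, with no scaling. STAR 2.4, DESeq2, GRCm39 and mm10 are named, with no role, per the submitters' processing notes. Counting program, strand setting and gene annotation: not given in the sources used here. Symbols, coordinates and exon lengths came from GENCODE M21 (GRCm38), which named 42462 of 43629 rows and can differ from the one the counts were made with. Members sharing exon bases with a gene on the other strand (12 of 62) are uncertain to that extent.

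IFNG was compared with Control in edgeR 4.0.16 (R 4.3.3) on all genes: TMM scaling, filterByExpr, quasi-likelihood F-test, two-sided, Benjamini-Hochberg adjustment at 0.05, no block. Each SE was derived from the size of the log2 fold change and its F statistic (their ratio, with F under a square root). CPM per kilobase uses the summed exon length. DESeq2 1.42.0, limma-voom (limma 3.58.1), other scalings and filters, a block and leaving out each library were alternatives. Members, lists and tests were chosen with earlier results of these data known. The rule for named genes was: every called member by its log2 fold change; group values for the 12 called members with the smallest p and the 6 with the largest change; Dcc; the most abundant uncalled member of each family per kilobase; and from each pathway list up to 3 genes with the smallest p in each direction and the most abundant uncalled one. Other genes named, among them Sema4d, the remaining Dpysl family and Crmp1, were chosen after their values were seen.

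Within-group pairs of libraries differed beyond sampling noise (chi-square per gene at least 7.30). Over all genes tested, pairs with IFNG 5 ran from 50.8 to 84.4, and other IFNG pairs from 14.6 to 46.4. Pairs with Control 4 ran from 19.9 to 40.2, and other Control pairs from 7.30 to 27.0. These values were not adjusted for depth. Tested on simulated data with 14715 genes, the fit found 55 of 100 genes with a 1.5-fold and 78 of 100 with a 2-fold change. Of its 142 calls there, 9 were false. In the IFNG and Control libraries a far larger share was called, 24.1% of 15241 genes. Whether the simulated rates hold at that share was not tested. A planned search of promoter sequences is not reported here.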

Additional observations from a re-analysis of the deposited data

Results flagged for a closer look

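Library values that stood apart from the other 5 of their group were found 9 times, by a gap test over 124 combinations of member and group. Chance gives about 1 in 20 of the combinations if these are independent. Members read in the same library are not independent checks. All 9 values were in Control 4 or IFNG 5. The chance rate per combination does not address that they fell in these libraries, so no conclusion is drawn from it. In Control 4, Efna4 was at 2.32 CPM against 0.565 to 1.004 CPM in the other Control libraries, Sema3a at 85.3 against 53.8 to 58.7 CPM, Plxna3 at 126 against 172 to 194 CPM and Plxnb1 at 54.9 against 85.0 to 97.8 CPM. In IFNG 5, Dcc was at 2.71 CPM against 14.0 to 17.5 CPM in the other IFNG libraries and Unc5d at 46.1 against 82.8 to 96.8 CPM. In the same library Slit2 was at 23.9 against 39.9 to 46.9 CPM, Slit3 at 36.2 against 73.3 to 82.6 CPM and Efna3 at 49.7 against 39.4 to 41.6 CPM. The cause was not tested.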

How the results depend on the processing

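The numbers of members that rose and fell lay between 11 and 16 each with any 1 library left out, and between 12 and 19 higher under all other alternatives. Members lower numbered 6 on totals without the genes that rose (semaphorins 3, ephrins 0, netrin receptors 0), where 2 neuropilins rose. That scaling moves all genes up by about 0.11 by construction, so a sign change of a value just below 0 carries no information. It placed Epha4, Epha5, Epha8, Ephb3, Slit1, Slit3, Unc5c, Plxnc1 and Sema3e at log2 fold changes of 0.054, 0.013, 0.019, 0.048, 0.074, 0.025, 0.051, 0.063 and 0.045, none called. With Control 4 and IFNG 5 left out together, 1 neuropilin and 0 ephrins rose, and Epha4, Unc5c, Plxnc1 and Sema3e stood at 0.045, 0.042, 0.031 and 0.0044. Ephrins lower numbered 2 with DESeq2, limma-voom or no composition factor and 0 with no filter, and Eph receptors lower numbered 1 with the filter of 1 CPM in 6 libraries, which drops Epha2. With 1 library left out, neuropilins higher ranged from 0 to 1, ephrins higher and lower from 0 to 2 each, and Eph receptors lower from 1 to 3. In the same runs these uncalled genes changed sign: Epha4 (-0.12 to 0.057), Ephb3 (-0.15 to 0.044), Slit1 (-0.087 to 0.023), Slit3 (-0.14 to 0.067), Efna5 (-0.24 to 0.0062), Dcc (-0.26 to 0.077), Unc5c (-0.18 to 0.098) and Plxnc1 (-0.086 to 0.043). The cause of these differences was not tested. With the replicate number as a block 15 members rose and 14 fell; Epha2 and Sema4a lost their call and Epha6, Epha7 and Sema7a gained one. Same-numbered libraries correlated between -0.00096 and 0.124 in their deviations from group means, and only 2 of 6 pairs exceeded 0.1, so the numbers were not taken to pair the samples. Depth limits the least-read members, such as Epha2 (246 counts in all) and Efna4 (405).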
